A study of Mus musculus with 16 samples.

Results

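The genes described here are 9 genes of bone formation and mineralization: the transcription factors Runx2 and Sp7, the matrix proteins Ibsp, Bglap and Dmp1, the phosphatase Alpl, the pyrophosphate genes Enpp1 and Ank, and the mineralization inhibitor Mgp. They were found by symbol, and each of the 9 had 1 of the 49568 rows of the count table. RNA-seq was performed on single deep digital flexor tendons of male C57BL/6J (C57) and MRL/MpJ (MRL) mice aged 9 to 11 weeks, with 4 libraries in each of 4 groups and 16 in all. C57BL/6J is a common laboratory strain of mouse. MRL/MpJ mice are studied because several of their tissues heal with little scar. Injured tendons of either strain had a partial laceration of 50% and were taken at 7 days post-injury (dpi), and uninjured tendons of the same strain were their controls. Sheath and peritendinous tissue stayed on the tendons, so the libraries hold more than tenocytes. Injured libraries go by the BI names of their labels, and uninjured ones by replicate number.

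Mineral forms in a collagen matrix where phosphate is available and pyrophosphate, which blocks the growth of mineral crystals, is removed. ENPP1 makes extracellular pyrophosphate from nucleotides, ANK moves pyrophosphate (and the ATP from which it is made) out of the cell, and the phosphatase encoded by Alpl breaks it down. RUNX2 and, after it, SP7 commit cells to the osteoblast lineage and raise matrix genes such as Ibsp (bone sialoprotein) and Bglap (osteocalcin), DMP1 is a matrix protein of osteocytes, and MGP keeps soft tissues such as artery and cartilage free of mineral. Loss of Enpp1 or of Ank function in mice is known to mineralize joints and tendons.

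The total count per library was between 12552424 and 17832908 in 3 of the groups, and between 18524170 and 23741648 in the injured MRL libraries, which were the deepest. Levels are given in CPM, counts scaled to the library size after TMM adjustment, and 3 counts, taken as the floor, stood for 0.126 to 0.241 CPM. The label was checked against tendon markers, and all 8 of them (Scx, Mkx, Tnmd, Fmod, Thbs4, Kera, Col1a1 and Col1a2) had counts in every group. C57 uninjured replicate 4 stood apart from every group, with a Spearman correlation of 0.799 to 0.834 with its own group and 6.45% of its counts on 12 epidermal markers. MRL uninjured replicate 4 had a correlation of up to 0.964 with an uninjured C57 library and of 0.932 to 0.941 with its own group. BI-181 had 5.60% of its counts on 12 skeletal muscle markers. Values without these libraries stand beside the results they moved most, and in bulk tissue fewer cells of a type and less RNA per cell cannot be told apart.

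Enpp1 and Ank rose with injury in the MRL tendon, and no member was called in the C57 tendon. A gene was called where edgeR gave an adjusted p under 0.05 with a log2 fold change beyond 1 in either direction (for the interaction, the adjusted p alone). In the C57 tendon 0 of the 7 members tested were called by edgeR or by DESeq2, where 1.07% of all genes tested were called by edgeR and 5.48% by DESeq2. Only Ank, of those 7, had an unadjusted p under 0.05. In the MRL tendon 2 of 6 members tested were called, against 7.41% of all genes tested, and both were higher after injury. DESeq2 called 5 members there, Ibsp, Alpl, Runx2, Enpp1 and Ank, against 11% of its genes. Between the injured tendons 2 of 7 members were called, Enpp1 higher and Mgp lower in MRL, against 3.43% of all genes. DESeq2 called 4 in that comparison, adding Ibsp and Ank, against 8.48% of its genes. Between the uninjured tendons edgeR called 0 of 7 members and 0% of all genes (0 of 14055, 1106 of them with an unadjusted p under 0.05), while DESeq2 called Ibsp alone of the members and 0.648% of its genes. The difference between the strains in their response to injury, tested as an interaction, called 0 of 7 members and 0% of all genes by edgeR (1939 of 15947 had an unadjusted p under 0.05) and 0 members against 1.23% of genes by DESeq2.

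**Figure D1:**
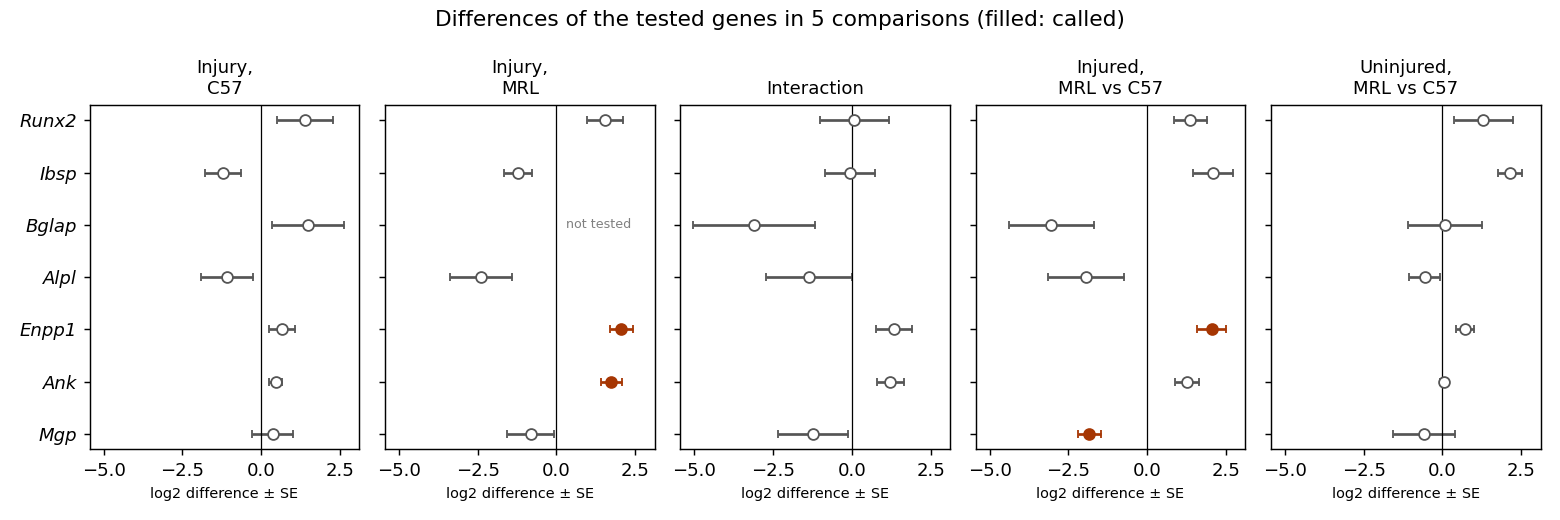
Log2 differences (horizontal axis, with SE) of the 7 members that could be tested in at least 1 of the 5 comparisons named above each panel, from edgeR; filled points were called. In the injury panel of MRL, Enpp1 lay at 2.06 and Ank at 1.74, and no point is filled in the C57, interaction or uninjured panels. Sp7 and Dmp1 had too few counts for a test and are not drawn.

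Groups of 4 against 4 libraries that did not overlap in CPM were counted as well. In the C57 tendon this held for 0 of 7 members, against 11.7% of all genes tested. It held in the MRL tendon for 3 of 6 members (Enpp1 and Ank higher, Alpl lower), against 22.9% of all genes. The injured strains did not overlap in 3 of 7 members (Enpp1 higher, Mgp and Bglap lower in MRL), against 16% of all genes. Bglap passed the filter there through injured C57, and 1 injured MRL library was over the floor of 3 counts. Its separation was 0.908 against 0.993 CPM, so its place in this count shows nothing further. For the uninjured strains it was 2 of 7 (Ibsp and Enpp1, both higher in MRL), against 5.04% of all genes.

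Enpp1, the ectoenzyme that makes pyrophosphate, had its highest levels in the injured MRL tendon. The uninjured C57 libraries had 92.1, 104, 99.8 and 41.3 CPM in replicates 1 to 4, and the injured C57 libraries 61.7 (BI-181), 207 (BI-183), 176 (BI-184) and 106 CPM (BI-185). The uninjured MRL libraries had 156, 159, 134 and 109 CPM, and the injured MRL libraries 408 (BI-270), 853 (BI-272), 249.5 (BI-274) and 802 CPM (BI-275). All 4 injured MRL libraries lay above each of the other 12, whereas the injured C57 libraries spread to both sides of the uninjured C57 libraries, with BI-181 below 3 of them. With injury Enpp1 rose 4.17-fold in MRL (log2 fold change 2.06 ± 0.35 SE, edgeR adjusted p = 0.0063). The change in C57 was 0.66 ± 0.40 (adjusted p = 0.472), and it was 0.44 without C57 uninjured replicate 4 and 0.94 without BI-181. In the direct contrast the injured MRL tendon was 4.12-fold higher than the injured C57 tendon (2.04 ± 0.46, adjusted p = 0.0386). The response of MRL exceeded that of C57 by 1.34 ± 0.58 on the log2 scale, with an unadjusted p of 0.034 and an adjusted p of 0.383, so the 2 responses were not shown to differ. Before injury the 4 MRL libraries already lay above the 4 C57 libraries (0.71 ± 0.27, adjusted p = 0.621). In order of mean level Enpp1 ran from uninjured C57 (84.2 ± 29.0 CPM, SD, n = 4) through injured C57 (138 ± 66.0) and uninjured MRL (139 ± 23.5) to injured MRL (578 ± 296). The middle 2 of these means differed by less than their spread.

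Ank, the pyrophosphate exporter, moved alike. Its uninjured levels were close to one another, at 173, 152, 179 and 171 CPM in C57 replicates 1 to 4 and 156, 169, 182 and 200 CPM in MRL replicates 1 to 4. The injured C57 libraries had 231 (BI-181), 289 (BI-183), 165 (BI-184) and 278 CPM (BI-185), 3 of them above every uninjured library. The injured MRL libraries had 286 (BI-270), 921 (BI-272), 372 (BI-274) and 778 CPM (BI-275), and BI-270 alone of them overlapped with C57. Ank rose 3.35-fold with injury in MRL (1.74 ± 0.34, adjusted p = 0.0105). The change in C57 was 0.47 ± 0.21 (unadjusted p = 0.0486, adjusted p = 0.324). The interaction was 1.22 ± 0.42, with an unadjusted p of 0.0102 and an adjusted p of 0.344. Between the injured tendons Ank was 1.26 ± 0.37 higher in MRL, which did not pass by edgeR (adjusted p = 0.0912) and passed by DESeq2 (adjusted p = 0.0151). The uninjured strains differed by 0.05 ± 0.14.

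The MRL injury calls of Enpp1 and Ank remained in each of the 8 fits that left out 1 library, with adjusted p-values of 0.00164 to 0.0247 for Enpp1 and 0.00653 to 0.0418 for Ank. The call of Enpp1 between the injured strains was lost in 6 of 8 such fits, including the 4 without a C57 library, and its adjusted p ranged from 0.0273 to 0.117. Without BI-181, the library with muscle transcripts and the lowest injured Enpp1, the log2 difference was 1.80.

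**Figure D2:**
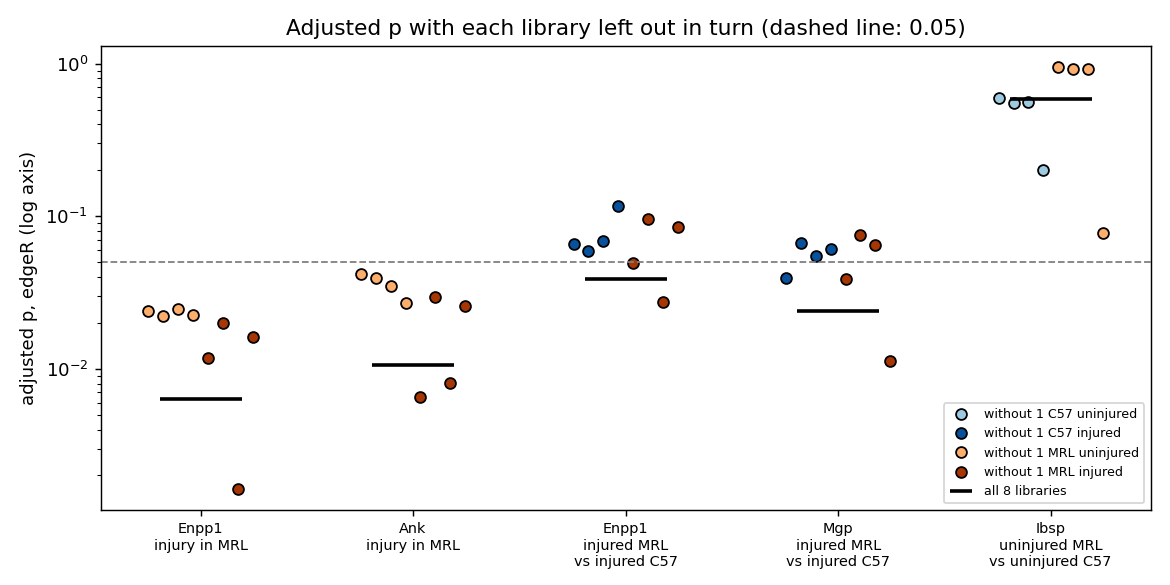
Adjusted p from edgeR (vertical log axis) for 5 results named on the horizontal axis. Bars mark the fit of all 8 libraries, points the fits without 1 library, coloured by its group, and the dashed line 0.05. Every point of Enpp1 and Ank for injury in MRL lies below the line, while those of Enpp1 and Mgp between the injured strains fall on both sides of it and those of Ibsp between the uninjured strains all lie above it.

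The sequences before the starts of Enpp1, Ank and Alpl are shown because these 3 genes set the pyrophosphate balance and the first 2 rose together. Each runs 5′ to 3′ over the 250 bases before the RefSeq start on GRCm38.p6, at chr10:24712160-24712409 on the minus strand (Enpp1), chr15:27466427-27466676 on the plus strand (Ank) and chr4:137796385-137796634 on the minus strand (the farther upstream of the 2 Alpl starts). Capitals mark GGGCGG, the GC box, on either strand.
Enpp1: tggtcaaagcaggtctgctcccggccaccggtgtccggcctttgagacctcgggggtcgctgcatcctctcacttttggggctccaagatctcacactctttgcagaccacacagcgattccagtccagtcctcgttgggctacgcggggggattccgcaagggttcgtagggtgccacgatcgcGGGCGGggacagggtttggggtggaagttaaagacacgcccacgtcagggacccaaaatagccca
Ank: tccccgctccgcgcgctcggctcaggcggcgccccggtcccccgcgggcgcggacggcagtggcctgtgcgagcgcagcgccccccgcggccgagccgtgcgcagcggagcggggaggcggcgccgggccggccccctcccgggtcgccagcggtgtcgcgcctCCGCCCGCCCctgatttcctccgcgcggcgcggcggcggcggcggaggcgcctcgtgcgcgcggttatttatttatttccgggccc
Alpl: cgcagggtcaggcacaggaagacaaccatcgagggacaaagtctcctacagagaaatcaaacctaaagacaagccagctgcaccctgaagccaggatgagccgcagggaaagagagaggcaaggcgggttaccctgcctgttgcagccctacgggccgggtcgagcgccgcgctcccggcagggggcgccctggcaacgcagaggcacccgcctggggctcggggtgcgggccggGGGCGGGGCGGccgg
Enpp1 held 1 GC box, 65 bases before its start, and Ank and Alpl each held 2 that overlapped one another. The window before the other Alpl start, not shown, held 0. Of the 32851 promoter windows of this length, 32.7% held a GC box, on either strand. The Runx core site AACCACA, searched on both strands, was in none of the 3 windows shown and in 4.40% of all. Among the 7 members with a promoter entry, 2 held it, Runx2 (81 bases before its start) and Dmp1 (165 bases before 1 of its 2 starts). Sp7 and Mgp had no entry. A match is a description of letters, not of a bound site.

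Alpl, the phosphatase that removes pyrophosphate, was low everywhere, with its lowest mean in the injured MRL tendon (1.40 ± 1.27 CPM, SD, n = 4). The uninjured C57 libraries had 13.3, 5.45, 14.4 and 10.3 CPM, and the uninjured MRL libraries 8.29, 3.83, 13.2 and 4.42 CPM. The injured C57 libraries fell into a high pair, BI-181 at 11.5 and BI-185 at 7.75 CPM, and a low pair, BI-183 at 1.11 and BI-184 at 0.779 CPM. The injured MRL libraries had 2.48 (BI-270), 0.635 (BI-272) and 2.47 CPM (BI-274), and BI-275 had 0 counts, which allows up to 0.167 CPM. All injured MRL libraries thus lay below all uninjured MRL libraries. The log2 fold change was -2.40 ± 0.99 in MRL, which did not pass by edgeR (adjusted p = 0.143) and passed by DESeq2 (adjusted p = 0.0458). In C57 it was -1.07 ± 0.83 (adjusted p = 0.581), and the interaction was -1.36 ± 1.36 (adjusted p = 0.742). Without BI-181 these were -1.77 and -0.64, and the difference between the injured strains went from -1.94 to -1.21, none of them called. With other libraries left out the C57 value reached -0.69, without BI-184. Counts of Alpl were 221 or fewer in every library, and its SE was larger than that of Enpp1 in each of the 5 comparisons.

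Within a library the ratio of the 2 enzymes does not depend on library scaling. For each Alpl count there were 6.92, 19.0, 6.94 and 3.99 Enpp1 counts in uninjured C57 replicates 1 to 4, and 18.8, 41.6, 10.1 and 24.5 in uninjured MRL replicates 1 to 4. In injured C57 there were 186 in BI-183 and 227 in BI-184, but 13.7 in BI-185 and 5.37 in BI-181, so BI-181 and BI-185 lay within the uninjured C57 range and the other 2 libraries far above it. The injured MRL libraries had 165 (BI-270), 1342 (BI-272) and 101 (BI-274), and BI-275 had at least 4795 at the floor of 3 Alpl counts. Every injured MRL library lay above every uninjured library, and 2 of the 4 injured C57 libraries did too. These ratios were chosen with the members' results known and carry no test.

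**Figure D3:**
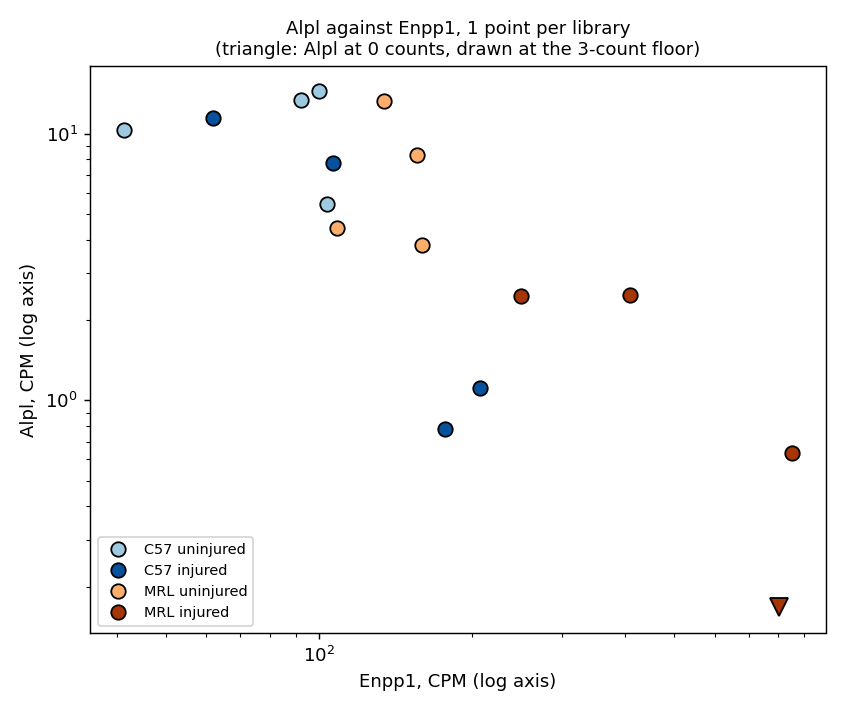
Alpl against Enpp1, both in CPM on log axes, with 1 point per library coloured by group; the triangle is BI-275, whose 0 Alpl counts are drawn at the floor of 3 counts. The injured MRL libraries lie to the lower right, with Enpp1 at 249.5 CPM or more and Alpl at 2.48 CPM or less, and the injured C57 libraries fall into 2 pairs.

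Mgp, the vitamin K-dependent inhibitor of soft tissue mineralization, was lower in injured MRL than in injured C57 tendon. The injured C57 libraries had 206 (BI-181), 285 (BI-183), 257 (BI-184) and 214 CPM (BI-185), and the injured MRL libraries 30.6 (BI-270), 77.0 (BI-272), 47.6 (BI-274) and 120 CPM (BI-275). The groups did not overlap, and Mgp was 3.57-fold lower in MRL (log2 difference -1.84 ± 0.37, adjusted p = 0.0239). When each library was dropped in turn the adjusted p ran from 0.0113 to 0.0751 and the log2 difference from -2.18 to -1.53. Mgp was no longer called without BI-183, BI-184, BI-185, BI-272 or BI-274. Over all 17 alternatives of library and processing it was called in 11, and its adjusted p reached 0.241.

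Before injury Mgp split by strain in 6 of 8 libraries and went the other way in the 2 that stood apart. C57 replicates 1 to 3 had 245, 193 and 274 CPM and MRL replicates 1 to 3 had 24.6, 63.7 and 65.4 CPM, whereas C57 replicate 4 had 13.7 and MRL replicate 4 had 333 CPM. Over all 8 libraries the difference was -0.58 ± 0.98 (adjusted p = 0.899). Without both of these libraries, a choice made after seeing the data, it was -2.22 ± 0.33 (adjusted p = 0.00568), in a fit that called 3.48% of all genes and 2 of 7 members, Mgp and Ibsp. Whether the 2 libraries carry the right strain label was not tested. With injury Mgp had a log2 fold change of 0.36 ± 0.66 in C57 (adjusted p = 0.848) and of -0.82 ± 0.76 in MRL (adjusted p = 0.523). These signs rest on the same 2 libraries, since the C57 value was -0.026 without C57 uninjured replicate 4 and the MRL value 0.43 without MRL uninjured replicate 4.

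Runx2, the master transcription factor of osteoblasts, was low, with its highest levels in the injured MRL tendon. The uninjured libraries had 1.68, 4.22, 1.01 and 0.132 CPM in C57 and 4.18, 1.23, 5.38 and 6.68 CPM in MRL. The injured ones had 3.79 (BI-181), 6.67 (BI-183), 6.75 (BI-184) and 1.99 CPM (BI-185) in C57 and 10.4 (BI-270), 16.02 (BI-272), 4.63 (BI-274) and 19.3 CPM (BI-275) in MRL. Of the injured MRL libraries 3 lay above every other library, and BI-274 lay within the range of uninjured MRL. The log2 fold change with injury was 1.40 ± 0.89 in C57 (adjusted p = 0.493) and 1.53 ± 0.57 in MRL (adjusted p = 0.11 by edgeR and 0.0403 by DESeq2). With 1 library left out the C57 value ranged from 1.01 (without C57 uninjured replicate 4) to 2.30 (without C57 uninjured replicate 2). The interaction was 0.08 ± 1.10, and it was 0.47 without C57 uninjured replicate 4, 0.36 without MRL uninjured replicate 4 and -0.02 without BI-181. It turned furthest without C57 uninjured replicate 2, to -0.82. Of the exon bases of Runx2, 5.87% are shared with the antisense gene Runx2os1, and the strand setting of the counting is not given in the sources used here, so reads there cannot be assigned. Sp7, the zinc finger factor needed for osteoblasts downstream of Runx2, had 20 counts in BI-181, 7 in BI-183, 5 in MRL uninjured replicate 2 and 0 in the other 13 libraries. It was at 0 in all 4 injured MRL libraries, where Runx2 was highest, and a count of 0 allows up to 3 counts. It could not be tested.

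Ibsp, bone sialoprotein, was higher in MRL than in C57 tendon before injury in all libraries. In the uninjured tendon C57 had 20.6, 23.3, 46.5 and 30.6 CPM and MRL 126, 228, 116 and 75.3 CPM in replicates 1 to 4. All 4 MRL libraries lay above all 4 C57 libraries, including both replicates 4. The cartilage marker Acan split the same way, and its values are given with the cell type markers. The MRL level was 4.44-fold higher (log2 difference 2.15 ± 0.38, unadjusted p = 0.000258), which did not pass after adjustment by edgeR (adjusted p = 0.585) and passed by DESeq2 (adjusted p = 7.4e-05). Without both replicates 4 it passed by edgeR too (2.37 ± 0.36, adjusted p = 0.00516). After injury C57 had 5.96 (BI-181), 19.4 (BI-183), 3.83 (BI-184) and 25.2 CPM (BI-185), and MRL 19.0 (BI-270), 49.6 (BI-272), 89.7 (BI-274) and 76.0 CPM (BI-275). BI-270 was the injured MRL library within the C57 range. The injured MRL tendon was 2.08 ± 0.64 higher (adjusted p = 0.103 by edgeR and 0.00985 by DESeq2). The values with injury were close to one another in the 2 strains, -1.21 ± 0.58 in C57 (adjusted p = 0.363) and -1.21 ± 0.45 in MRL (adjusted p = 0.109 by edgeR and 0.0455 by DESeq2). The interaction was -0.06 ± 0.79 (adjusted p = 0.991), an estimate whose SE leaves room for a difference of about the size of either response. It was -0.31 without BI-181 and -0.27 without MRL uninjured replicate 4. With 1 library left out it ranged from -0.38 (without BI-184) to 0.42 (without BI-185).

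Bglap, osteocalcin, was near the floor. The uninjured libraries had 21, 18, 2 and 0 counts in C57 and 6, 15, 16 and 6 counts in MRL. The injured ones had 16 (BI-181), 20 (BI-183), 25 (BI-184) and 58 counts (BI-185) in C57 and 0 (BI-270), 20 (BI-272), 1 (BI-274) and 0 counts (BI-275) in MRL, and in CPM every injured MRL library lay below every injured C57 library, with BI-272 at 0.908 and BI-181 at 0.993 CPM. The log2 difference between the injured strains was -3.05 ± 1.35 (adjusted p = 0.23), and it passed in 1 of 8 fits without 1 library, the one without BI-272 (adjusted p = 0.0484). That fit moved the difference to -6.46, with 0, 1 and 0 counts left in the injured MRL group, so its size rests on counts at or under the floor. The change with injury in C57 was 1.48 ± 1.15 (adjusted p = 0.582), from 0.89 without BI-185 to 2.10 without C57 uninjured replicate 1, and Bglap could not be tested in MRL. On chromosome 3 Bglap (positions 88383501 to 88384464 of GRCm38, minus strand) lies beside its near-identical copies Bglap2 and Bglap3, between which reads can be split or lost. Bglap2 had 19 to 183 counts in the injured C57 libraries and 3 to 46 in the injured MRL libraries (-2.89 ± 1.04, adjusted p = 0.151). Bglap3 reached 130 counts in C57 uninjured replicate 4 and 43 in replicate 3, where Bglap had 0 and 2, and at most 15 elsewhere. With the 3 copies summed, the change with injury in C57 was 0.39 and the difference between the uninjured strains turned from 0.09 to -2.14 on the log2 scale, none of them called.

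Dmp1, a phosphoprotein of osteocytes, had at most 6 counts in any library and none in 8 of 16. It was over the floor of 3 counts in BI-183 and in MRL uninjured replicate 3 and could not be tested. Of the 7 osteocyte genes looked at, Mepe and Fgf23 were at 0 counts in all groups and Sost in all but the injured MRL group. The list as a whole summed to between 30.4 and 181 CPM in a library, most of it from Fam20c and Pdpn, which other cells make as well and which were picked out after their values were seen.

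**Figure D4:**
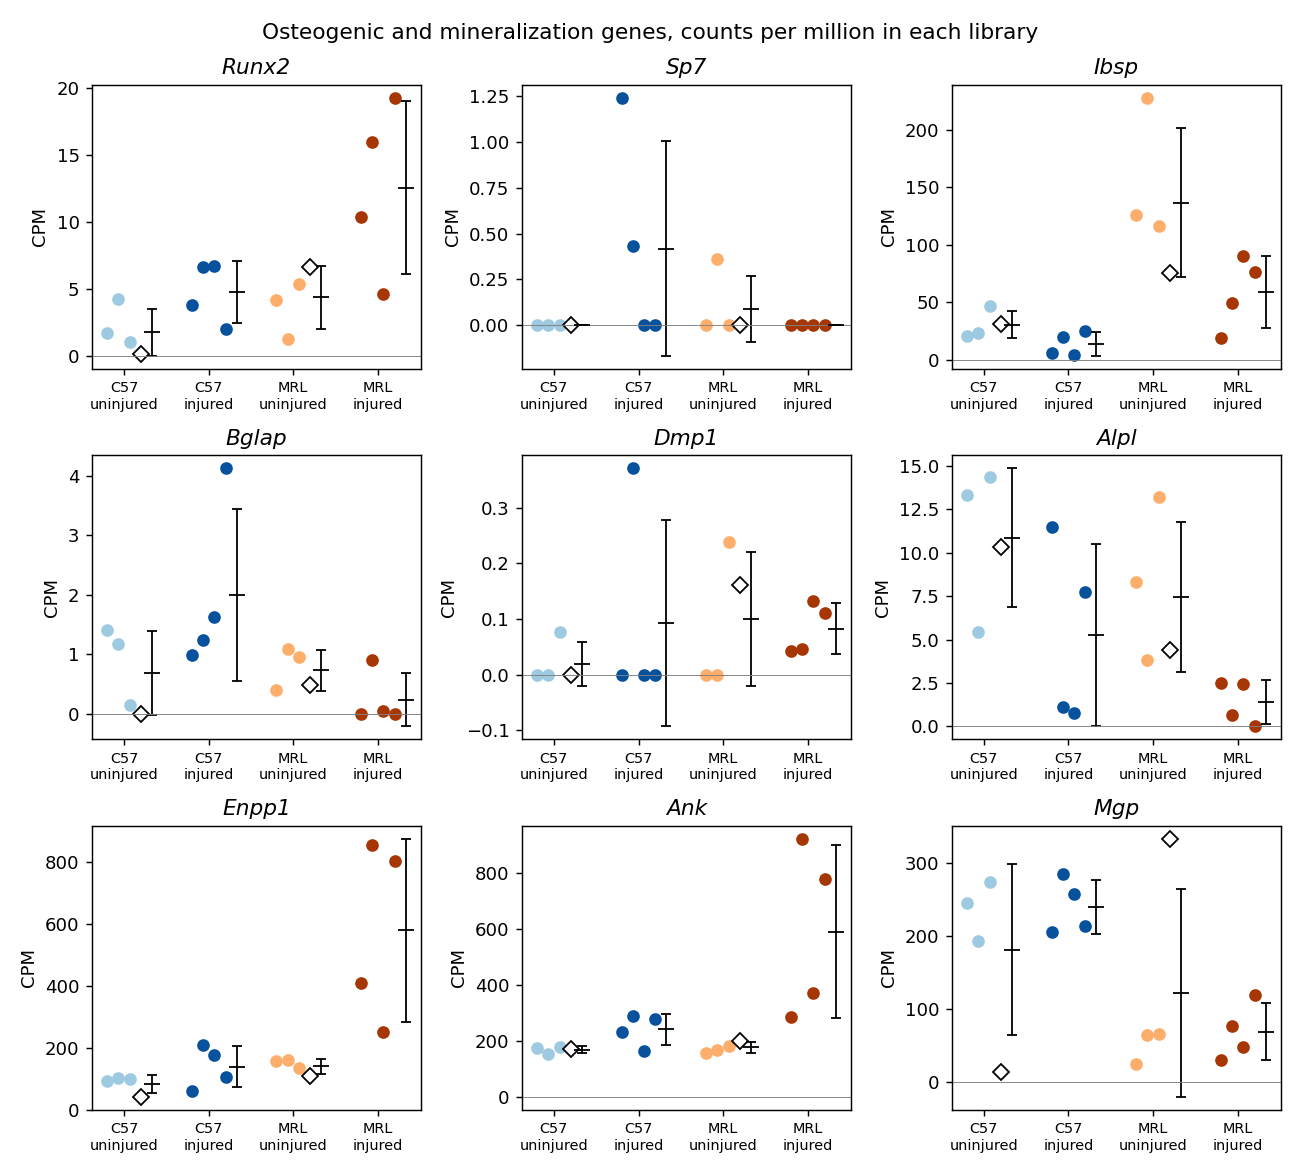
CPM (vertical axes, linear) of the 9 members in each library, by group, with the mean and SD of 4 libraries beside the points; open diamonds are the 2 libraries labelled uninjured replicate 4. The injured MRL points of Enpp1 and Ank reach 853 and 921 CPM. The diamonds of Mgp are at 13.7 CPM in C57 and 333 CPM in MRL. The first lies below the other uninjured MRL libraries (24.6 to 65.4 CPM) and the second above the other uninjured C57 libraries (193 to 274 CPM).

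Per kilobase of exon, on which genes can be set against each other, the order of the members changed between the groups. Mgp had the highest mean in uninjured C57 (153 CPM per kb), injured C57 (203) and uninjured MRL (103). Its place in uninjured MRL rested on replicate 4, at 333 CPM where the others had at most 65.4 CPM, and without that library, left out after the data were seen, Ibsp came first (75.7 CPM per kb), then Ank (46.8) and Mgp (43.2). In the injured MRL tendon Ank was the highest (163 CPM per kb), followed by Mgp (57.9) and Enpp1 (56.4). With all libraries Ibsp ranked second in uninjured MRL at 65.9 CPM per kb, and it stood at 6.58 in injured C57. Alpl was at 2.70 CPM per kb in uninjured C57 and 0.346 in injured MRL, and Runx2, Sp7 and Dmp1 were at 1.42 or less in every group.

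Across the 16 libraries the log2 CPM of Enpp1 correlated with Ank (Pearson r = 0.82), Runx2 (0.80) and Alpl (-0.83). Ibsp and Mgp had weak correlations with all 3 of Enpp1, Ank and Alpl (r between -0.09 and 0.22). These points share 4 groups of unequal depth, and the values are descriptions. Among 15947 genes those most like Enpp1 over the 16 libraries were Kdelr3 (r = 0.97), Sar1a (0.96) and Myl6 (0.96), and genes much like Ank were R3hdml (0.94) and Cxcl3 (0.90). The genes most like Runx2 were Pxdn (0.89), Zfp428 (0.88) and Ssr3 (0.87), and for Alpl Chodl (0.93), Atp6v0e2 (0.92) and Gps2 (0.91). Ibsp was most like Cox4i2 (0.93), 3110079O15Rik (0.91) and Dync1i1 (0.90), Mgp most like Gm45640 (0.93), Dusp23 (0.91) and B3galt1 (0.91), and Bglap, from few counts, most like Fblim1 (0.88), Nat8f3 (0.87) and Gm4673 (0.87).

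Other genes of the mineralization pathway were looked at in lists. Their counts of calls stand beside 7.41% of all genes called by edgeR for injury in MRL, 1.07% in C57 and 3.43% between the injured strains. Of 10 genes that handle phosphate and pyrophosphate, 7 were tested for injury in MRL and the 2 called were Enpp1 and Ank, with a median log2 fold change of 0.87 beside -0.03 over all genes. In C57, 8 of those genes were tested and none was called by edgeR or DESeq2 (median 0.49 beside -0.05). Of 6 mineralization inhibitors and the genes that activate them, 5 were tested and none was called with injury by edgeR in either strain. DESeq2 called 1 of them in MRL, Spp1, osteopontin (2.12 ± 0.65, adjusted p = 0.0633 by edgeR and 0.0495 by DESeq2), and none in C57. Between the injured strains edgeR called 2 of those 5, Mgp and Ggcx, both lower in MRL, and DESeq2 called 4. Ggcx, the carboxylase that activates MGP, had 12.7 to 21.0 CPM in injured MRL and 21.5 to 73.3 CPM in injured C57 (-1.69 ± 0.35, adjusted p = 0.0281). The other 2 that DESeq2 called, singled out after their values were seen, had higher means in injured MRL. They were Vkorc1, which recycles the vitamin K that this carboxylase uses (1.08 ± 0.28, adjusted p = 0.0615 by edgeR and 0.00802 by DESeq2), and Spp1 again (1.57 ± 0.59, adjusted p = 0.166 by edgeR and 0.0431 by DESeq2).

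Of 10 osteoblast transcription factors, 8 were tested in each comparison. Dlx5, a homeobox factor of bone, fell with injury in MRL from 21.2 to 43.5 CPM to between 10.9 and 15.3 CPM (-1.37 ± 0.25, adjusted p = 0.00859). In C57 its log2 fold change was -2.26 ± 0.76, with group means of 31.5 and 6.82 CPM that passed by DESeq2 (adjusted p = 0.0443) but not by edgeR (adjusted p = 0.214), and the interaction was 0.83 ± 0.81 (adjusted p = 0.734). Dlx3, another homeobox factor, was lower in injured MRL than injured C57 (-2.24 ± 0.41, adjusted p = 0.0167). No other factor was called. Of 13 bone matrix genes 6 to 8 were tested and none was called by edgeR in any comparison, and by DESeq2 1 to 3 were in each two-group comparison. Of 7 osteocyte genes, Pdpn, a mucin-like protein that fibroblasts and lymphatic cells also make, was the only one called, higher with injury in MRL (2.00 ± 0.28, adjusted p = 0.0029). In C57 its log2 fold change was 1.43 ± 0.34, which passed by DESeq2 (adjusted p = 0.00303) but not by edgeR (adjusted p = 0.0855), with every injured library above every uninjured one. Of 11 osteogenic signals and antagonists 5 were tested in each two-group comparison. Sfrp4, a secreted Wnt antagonist, rose with injury in C57 from 2.44 to 16.5 CPM to between 71.2 and 147 CPM (3.30 ± 0.53, adjusted p = 0.0282), was at 1.72 to 16.8 CPM in injured MRL, and differed between the injured strains by -4.07 ± 0.62 (adjusted p = 0.00799). Its change with injury in MRL was -0.11 ± 0.94 (adjusted p = 0.953 by edgeR). The interaction was -3.47 ± 1.24 (adjusted p = 0.344 by edgeR and 0.0922 by DESeq2), so the responses of Sfrp4 were not shown to differ. Bmp4, an osteogenic growth factor, fell with injury in MRL (-1.43 ± 0.37, adjusted p = 0.0336). Its value in C57 was -1.06 ± 0.40 (unadjusted p = 0.0266, adjusted p = 0.261), and the interaction was -0.42 ± 0.57 (adjusted p = 0.827).

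Markers of other cell types differed between the groups too. For the counts below, the shares of all genes called by edgeR were 7.41% for injury in MRL, 1.07% for injury in C57 and 3.43% between the injured strains. Of 8 osteoclast markers 5 were tested with injury in MRL and 3 rose, Ctsk (1.36 ± 0.16, adjusted p = 0.0013), Dcstamp and Acp5. Their summed level went from 168 to 210 CPM in uninjured MRL to between 436 and 684 CPM in injured MRL, and from 97.5 to 214 CPM to between 246 and 638 CPM in C57, with most of the sum from Ctsk (mean 187 to 478 CPM in MRL and 152 to 456 CPM in C57), which fibroblasts can make as well. The change of Ctsk with injury in C57 was 1.53 ± 0.41 (adjusted p = 0.127 by edgeR and 0.00733 by DESeq2). Its interaction was -0.23 ± 0.45 (adjusted p = 0.892 by edgeR), so the 2 responses were not shown to differ. In C57, Acp5 was spread from 0.389 to 31.1 CPM before injury and from 3.23 to 11.98 CPM after it. Calcr was at 0 in all groups but injured C57 and Oscar at 0 in injured MRL and uninjured C57. Of 8 macrophage markers 4 rose in MRL and 5 in C57, and their summed level went from 902 to 1494 CPM to between 3501 and 6252 CPM in MRL and from 741 to 1539 CPM to between 4454 and 7933 CPM in C57. Between the injured strains all 8 macrophage markers had negative log2 differences (median -0.97), and edgeR called 3 lower in MRL, as Mgp was, Csf1r (-1.39 ± 0.29, adjusted p = 0.0273), C1qa (-1.22 ± 0.29, adjusted p = 0.0483) and C1qb (-2.12 ± 0.39, adjusted p = 0.0165). Of 9 cartilage markers with a row of counts, 7 were tested, and 2 rose with injury in MRL, Acan (1.91 ± 0.52, adjusted p = 0.0421) and Col11a1 (1.58 ± 0.35, adjusted p = 0.0189), while Chad fell (-1.84 ± 0.38, adjusted p = 0.0139). In C57 edgeR called none of the 7 and DESeq2 called 2, Chad among them (-1.53 ± 0.48, adjusted p = 0.187 by edgeR and 0.0415 by DESeq2). Between the injured strains edgeR called Acan (48.1 to 358 CPM in MRL and 4.35 to 21.6 CPM in C57, 3.78 ± 0.75, adjusted p = 0.0272) and Col11a1 (2.25 ± 0.46, adjusted p = 0.0256) higher in MRL, as Enpp1 was, and DESeq2 called 5 of the 7, all higher in MRL. Between the uninjured strains 6 of 7 log2 differences were positive (median 0.89 beside -0.03 over all genes), with none called by edgeR, while DESeq2 called Acan and Matn3, a gene edgeR's filter had left out. Acan, like Ibsp, had every uninjured MRL library (38.3 to 64.9 CPM) above every uninjured C57 library (7.90 to 15.9 CPM). The summed cartilage level was 24793 to 32359 CPM in uninjured MRL and 9832 to 22148 CPM in injured MRL, with none of the 9 at 0 there. Bone marrow and neutrophil markers were near 0, their 10 genes summing to at most 27.6 CPM in all libraries but C57 uninjured replicate 3 (137 CPM). Of 8 endothelial and mural markers 3 were lower in injured MRL than in injured C57, as Mgp was, and their sum was 43.5 to 125 CPM in injured MRL against 318 to 1420 CPM in injured C57. Of the 8 tendon markers Thbs4 was the only one called with injury in MRL (1.31 ± 0.23, adjusted p = 0.00679), and none was called by edgeR in C57. The change of Thbs4 in C57 was 0.96 ± 0.34 (adjusted p = 0.228 by edgeR), and its interaction was 0.29 ± 0.41 (adjusted p = 0.836). DESeq2 called 1 tendon marker in C57, Kera (3.85 ± 1.05, adjusted p = 0.135 by edgeR and 0.00137 by DESeq2). Between the injured strains 8 of 8 tendon markers had a positive log2 difference (median 0.90 beside -0.06 over all genes), with Scx called (1.18 ± 0.21, adjusted p = 0.0162). Their sum was 28057 to 59896 CPM in injured MRL, 15095 to 30199 CPM in injured C57, 15891 to 34569 CPM in uninjured MRL and 11174 to 21953 CPM in uninjured C57. The part of these cell types in the values of Enpp1, Ank, Ibsp and Mgp was not tested.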

How the data were processed

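RNA-seq was measured in 16 libraries, grouped by the strain and injury in their labels, of which 4 uninjured per strain are numbered. The authors deposited unnormalized counts, whole numbers, with 1 row for each of 49568 gene symbols. The submitters' processing notes name Trimmomatic 0.36, STAR 2.5.2b, Subread 1.5.0p3 with featureCounts, DESeq2 1.14.1 and the build GRCm38.p5. The gene annotation and strand setting are not given in the sources used here. The labels describe TruSeq libraries, and the paper's methods a pre-amplified low-input kit without molecular identifiers, so counting error may understate technical error, and floors cover counting error only.

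Counts were tested in R 4.3.3 with edgeR 4.0.16 (TMM, expression filter, robust quasi-likelihood test, Benjamini-Hochberg adjustment over all genes tested), each comparison on its own 8 libraries and the interaction on all 16. SEs are the log2 fold change over the root of its F value. CPM used TMM-adjusted library sizes, and log2 CPM a prior count of 2. The tests were first tested on simulated data. DESeq2 1.42.0 was run on all genes with a count, other scalings, filters, joint fits, summed osteocalcin copies and left-out libraries were tried, and no 2 libraries of a group agreed within sampling noise (24 pairs).

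The members and gene lists were chosen with earlier results of these data known. All 9 members are named, with Bglap2 and Bglap3. Other list genes were to be named where called in at least 1 comparison (at most the 4 with the smallest adjusted p per list and comparison). Some called cell type markers are given only as counts or left out, and some list genes that edgeR did not call are named. For each member tested over 16 libraries the 3 genes with the highest Pearson r are named, of which 1 is not reported here. Exon lengths and coordinates came from GENCODE M21, and promoters from RefSeq. Replicates were single tendons of different animals per the methods.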

Additional observations from a re-analysis of the deposited data

Results flagged for a closer look

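Of 38 groups of 4 libraries in which a member's level or the Alpl to Enpp1 ratio varied, 5 had a library whose gap to its nearest neighbour was too large a share of the group's range by Dixon's test at its 95% critical value, which chance alone passes in about 1 of 20 groups. In uninjured MRL, Mgp in replicate 4 was at 333 CPM and the others at 24.6 to 65.4 CPM. In injured MRL, Bglap in BI-272 was at 0.908 CPM and the others at 0.0441 CPM or less. The other 3 rest on 6 counts or fewer: Sp7 in MRL uninjured replicate 2 (0.361 CPM), Dmp1 in BI-183 (0.371 CPM) and Dmp1 in C57 uninjured replicate 3 (0.0773 CPM), each with the rest of its group at 0. No cause of these values was tested.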

How the results depend on the processing

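In the C57 tendon 0 members were called under every alternative tried, and the MRL calls of Enpp1 and Ank held under all 17. DESeq2 moved the number of members called to 5 for injury in MRL, 4 between the injured strains and 1 between the uninjured strains. Between the injured strains 1 member was called with no filter, and 0 to 3 were called when 1 library was left out. Between the uninjured strains 2 were called without both libraries labelled replicate 4. The replicate numbers of the uninjured libraries mark different animals, and same-numbered libraries did not deviate together (r = -0.26, 0.02, -0.10 and -0.23), so with the replicate block, which called 0 members and 0 genes, the pairing is in number only. Values that turned direction were none of them called. With 1 library left out, Mgp ranged from -0.026 to 0.63 for injury in C57 and from -1.23 to 0.43 for injury in MRL. The interaction, whose main value is near 0 for Ibsp and Runx2, then ranged from -0.38 to 0.42 for Ibsp, from -0.82 to 0.47 for Runx2 and from -1.64 to 0.016 for Mgp (0.75 and 0.40 without both libraries labelled replicate 4). Between the uninjured strains Bglap ranged from -0.33 to 0.71 (-2.14 with its copies summed, 1.00 with the replicate block, -0.18 without both libraries) and Ank from -0.00023 to 0.12 (-0.00144 without both). Where no value shows the cause of a change, the cause was not tested. Total-count scaling moved every mean CPM of a member, and 0.5 CPM added to both genes every median Alpl to Enpp1 ratio, by less than 1 SD.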
